A study of Mus musculus with 14 samples.

Results

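Expression of 9 genes that carry inflammatory and programmed cell death was followed in pieces of brain that held hippocampus and cortex, taken from 14 female mice of 23 months. The genes were Nlrp3, Pycard, Casp1, Casp4 and Gsdmd of the inflammasome, and Casp8, Ripk3, Mlkl and Birc3 of the death receptor and necroptosis pathway. They were chosen by name, and all 9 were found among the 43346 genes of the count table. The groups were NTG mice on vehicle (n = 4), APP/PS1 mice on vehicle (n = 5) and APP/PS1 mice on CP2 (n = 5), a compound that weakly blocks complex I of the mitochondrial respiratory chain. NTG mice were wild type and non-transgenic, APP/PS1 mice carried both transgenes (genotype label APP/PS1 +/+) with familial Alzheimer's disease mutations, and all mice had the strain label C57BL/6;SJL-Tg. Vehicle was 0.1% PEG in the drinking water, and the CP2 dose of 25 mg/kg/day was given in it for 14 months, beginning at an age of 9 months. The promoters that drive the transgenes are not given in the sources used here. NTG mice on CP2 were not analysed here, so an effect of CP2 outside the APP/PS1 background could not be assessed.

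An inflammasome is a complex built in the cytosol when a sensor such as NLRP3 meets a danger signal. The sensor binds the adaptor ASC, encoded by Pycard, which gathers and activates caspase-1. Caspase-1 matures the cytokines IL-1β and IL-18 and cuts gasdermin D, whose fragments form pores in the plasma membrane and end in the lytic death called pyroptosis. Mouse caspase-11, encoded by Casp4, binds bacterial lipopolysaccharide directly and also cuts gasdermin D. Downstream of death receptors, caspase-8 drives apoptosis and restrains necroptosis, in which RIPK3 phosphorylates MLKL and MLKL then breaches the membrane. The ubiquitin ligase cIAP2, encoded by Birc3, keeps receptor complexes in a state of survival signalling and is a target of NF-κB. In the brain most inflammasome components are found in microglia, the resident macrophages, and amyloid deposits are a known trigger of NLRP3.

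Since several members rose together in APP/PS1 mice, as described below, their promoters were searched, on both strands, for 4 motifs of inflammatory or myeloid transcription factors: GAS (TTCNNNGAA), a PU.1 site (GAGGAAGT), and the ISRE and NF-κB consensus sequences. The search covered RefSeq windows of GRCm38.p6 from 250 bases before to 50 bases after each start, of which the bases before the start are shown. Of the 9 genes, 8 had an entry, and Gsdmd had none. Matches were found in Nlrp3, Pycard and Casp4, whose sequences are shown 5′ to 3′ on the strand of the gene, with the matches in capitals. The NF-κB consensus was matched in 1 of the 2 Nlrp3 windows and, in 3 placements of which the first 2 overlap, in both of the overlapping Casp4 windows. Pycard held the PU.1 site on the reverse strand.
Nlrp3, chr11:59541319-59541568, plus strand, match at -186 to -177: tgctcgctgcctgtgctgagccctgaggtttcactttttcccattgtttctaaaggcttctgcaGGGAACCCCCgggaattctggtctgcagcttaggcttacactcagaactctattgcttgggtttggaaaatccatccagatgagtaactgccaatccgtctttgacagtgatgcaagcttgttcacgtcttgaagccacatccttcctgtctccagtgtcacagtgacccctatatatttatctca
Casp4, chr9:5308599-5308848, plus strand, matches at -93 to -84, -92 to -83 and -39 to -30: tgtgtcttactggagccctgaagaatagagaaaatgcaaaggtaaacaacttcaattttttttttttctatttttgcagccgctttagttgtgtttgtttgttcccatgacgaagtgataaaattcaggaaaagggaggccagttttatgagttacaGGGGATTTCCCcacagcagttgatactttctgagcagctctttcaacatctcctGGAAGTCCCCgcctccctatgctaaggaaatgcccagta
Pycard, chr7:127993868-127994117, minus strand, match at -44 to -37: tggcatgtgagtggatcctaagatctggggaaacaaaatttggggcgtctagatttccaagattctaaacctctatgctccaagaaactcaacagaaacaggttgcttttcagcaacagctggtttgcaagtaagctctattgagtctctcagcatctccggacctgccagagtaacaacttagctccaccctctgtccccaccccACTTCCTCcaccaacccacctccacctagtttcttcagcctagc
Positions are counted from the start of transcription. The windows of Casp1, Casp8, Ripk3, Mlkl and Birc3 matched none of the 4 motifs. Among all 32851 promoter windows of the same length, 8.46% held the NF-κB consensus, 3.20% the PU.1 site, 3.44% the ISRE and 8.30% the GAS motif. A match describes the letters of the window and not a site in use, and the absence of a match says only that these letters are not in the window.

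Total counts ranged from 70548781 to 106235625 per mouse, so that 1 count stood for 0.00923 to 0.0149 CPM, the unit of counts scaled to library size. CPM were scaled with TMM factors, and the tests took in genes with over 1 CPM throughout at least 1 group. In each comparison 6 members met this filter, and Casp4, Ripk3 and Mlkl did not. The lowest count was 7 for Mlkl and 14 for Ripk3, both in NTG mice. That the tissue was brain was borne out by neuronal markers, whose 8 genes summed to 5512 to 6700 CPM. These markers do not tell hippocampus and cortex from other regions. APP/PS1 mouse 16 stood apart from the other libraries: 8 striatal markers summed to 2057 CPM in it against 147 to 302 CPM in the other 13 mice, and results that rest on it are given with and without it. The share of counts on ribosomal RNA ranged from 2.40% to 7.50%. Per the study's methods NTG mice were littermates of the transgenic mice and mice were housed in groups, but which of the 14 shared a litter, a cage or a preparation day is not given in the sources used here, so that p-values measure the spread between these mice.

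Per length of transcript, Pycard, Casp1 and Gsdmd had the highest levels of the 9 genes in every group, and Casp4, Ripk3 and Mlkl the lowest. In the authors' RPKM values for NTG mice, Casp1 led with 2.02 ± 0.232 (SD, n = 4), followed by Pycard with 1.48 ± 0.205 and Gsdmd with 1.01 ± 0.168. In APP/PS1 mice the order of the leading pair was turned, with Pycard at 3.69 ± 0.640 RPKM (SD, n = 5) and Casp1 at 2.65 ± 0.528 RPKM. Casp1 was above Pycard in 4 of 4 NTG mice, whereas Pycard was above Casp1 in 5 of 5 APP/PS1 and 4 of 5 CP2-treated APP/PS1 mice. The middle ranks in APP/PS1 mice were held by Gsdmd (2.2498 ± 0.465 RPKM), Casp8 (1.19 ± 0.129), Nlrp3 (0.787 ± 0.248) and Birc3 (0.570 ± 0.0842). Casp4 (0.262 ± 0.0736 RPKM), Ripk3 (0.178 ± 0.0601) and Mlkl (0.116 ± 0.0626) came last. Neighbours whose means ± SD overlapped in APP/PS1 mice were Pycard and Casp1, Casp1 and Gsdmd, Nlrp3 and Birc3, Casp4 and Ripk3, and Ripk3 and Mlkl. With CP2 the order was as in vehicle-treated APP/PS1 mice, from Pycard at 2.84 ± 0.776 RPKM to Mlkl at 0.119 ± 0.0293 RPKM (SD, n = 5), and Casp8 and Nlrp3 also overlapped.

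The comparison of vehicle-treated APP/PS1 with NTG mice asks which of these genes follow the disease genotype at old age. Of the 6 members tested, 5 were higher in APP/PS1 mice at an adjusted p under 0.05 (edgeR's quasi-likelihood test, Benjamini-Hochberg over 16425 genes): Pycard, Casp8, Gsdmd, Nlrp3 and Birc3. Casp1 did not pass. Over all genes tested, 4.33% were called higher. The median log2 fold change of the 6 members was 1.03, beside -0.004 over all genes. Nlrp3 met the filter only through APP/PS1 mice, NTG mouse 8 being under 1 CPM, and of the 5 members above 1 CPM in both groups 4 were called, with a median of 0.97. In 6 of the 9 members every APP/PS1 mouse lay above every NTG mouse, the 5 called genes and Casp4, which was not tested. Of the 6 members tested 5 showed such a separation, Nlrp3 among them, while 5.92% of all genes tested did. In bulk tissue, more cells of a type and more RNA per cell cannot be told apart.

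Nlrp3, the sensor (chromosome 11, 59541568 to 59566956 of mm10), was present at 1.87, 0.892, 2.34 and 1.18 CPM in NTG mice 7 to 10. In APP/PS1 mice 16 to 20 it reached 2.53, 3.77, 2.64, 4.80 and 5.38 CPM. With CP2, mice 21 to 25 had 5.01, 4.80, 2.18, 2.36 and 2.35 CPM. The lowest APP/PS1 mouse was close to the highest NTG mouse without overlap, and the CP2-treated mice fell into a pair near the highest vehicle-treated mice and 3 mice at the upper edge of NTG. Nlrp3 rose 2.44-fold in APP/PS1 mice by the ratio of mean CPM, with a log2 fold change of 1.29 (SE 0.33, adjusted p = 0.0485, or 0.0447 without a filter). This call was narrow: it was lost when any of NTG mice 7, 8 and 10 or APP/PS1 mice 17, 19 and 20 was left out, with adjusted p-values from 0.0787 to 0.131 and log2 fold changes from 1.10 to 1.39. Without mouse 16 the log2 fold change was 1.40 (adjusted p = 0.0194).

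Pycard, the adaptor (chromosome 7, 127992103 to 127993867), had 3.01, 2.29, 2.49 and 2.63 CPM in the NTG mice. APP/PS1 mice gave 4.71, 5.97, 6.53, 7.59 and 6.10 CPM. With CP2 the values were 5.98, 6.21, 4.51, 4.07 and 3.25 CPM. Each transgenic mouse, treated or not, was above each NTG mouse. The rise in vehicle-treated APP/PS1 mice was 2.37-fold, a log2 fold change of 1.25 (SE 0.15, adjusted p = 0.000930), and passed in all alternatives. In the GENCODE annotation 485 exon bases of Pycard are shared with Gm45205 on the opposite strand, and since the library kit does not mark strand, reads of both cannot be told apart there.

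Casp1, the caspase of the inflammasome (chromosome 9, 5298517 to 5307265), had 4.28, 3.99, 3.74 and 3.17 CPM in NTG mice and 3.25, 4.58, 5.62, 5.20 and 5.001 CPM in APP/PS1 mice. CP2-treated mice had 4.80, 4.12, 3.20, 4.17 and 4.30 CPM. Mouse 16 lay within the NTG range, and the other 4 APP/PS1 mice lay above it. The log2 fold change was 0.33 (SE 0.16, adjusted p = 0.324). This result rested on mouse 16: without it the log2 fold change was 0.43 and the adjusted p 0.0474, a call that was lost when the filter was dropped as well (0.44, adjusted p = 0.0621), and the mean rose from 4.73 ± 0.909 CPM (n = 5) to 5.10 ± 0.431 CPM (n = 4).

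Casp4, which encodes caspase-11 (chromosome 9, 5308828 to 5336783), lies next to Casp1 and was the lowest of the inflammasome members per length. NTG mice had 0.432, 0.387, 0.379 and 0.300 CPM, and APP/PS1 mice had 0.668, 1.148, 1.13, 1.57 and 1.30 CPM. With CP2 it stood at 1.29, 0.982, 0.835, 0.650 and 0.575 CPM. Its level was higher in every transgenic mouse than in every NTG mouse, and the ratio of means between APP/PS1 and NTG mice, 3.10, was the largest among the 9 genes. Casp4 was under the filter on low counts. In the fit without a filter its log2 fold change was 1.63 (SE 0.25, adjusted p = 0.00319), and leaving out single mice gave 1.499 to 1.79 with adjusted p-values from 0.000145 to 0.0174.

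Gsdmd, the pore-forming substrate of both caspases (chromosome 15, 75862339 to 75867404), was measured at 2.61, 2.50, 2.14 and 1.72 CPM in NTG mice. APP/PS1 mice had 3.25, 4.57, 4.99, 5.93 and 5.11 CPM, and CP2-treated mice 4.44, 5.07, 3.80, 3.67 and 3.42 CPM. All 10 transgenic mice were above the 4 NTG mice. Gsdmd rose 2.13-fold in APP/PS1 mice, with a log2 fold change of 1.10 (SE 0.19, adjusted p = 0.00766).

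Casp8, the caspase of the death receptors (chromosome 1, 58795374 to 58847503), was the steadiest of the 9 genes in NTG mice, at 2.27, 2.08, 2.01 and 2.08 CPM. APP/PS1 mice had 3.60, 4.09, 4.13, 4.73 and 3.95 CPM. In CP2-treated mice the gene gave 3.48, 4.12, 3.46, 3.27 and 2.84 CPM. The groups of transgenic mice lay wholly above NTG. The 1.94-fold rise in APP/PS1 mice, a log2 fold change of 0.97 (SE 0.11, adjusted p = 0.000695), had the smallest p of the members.

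Ripk3 and Mlkl, the kinase and the executioner of necroptosis, had the lowest counts of the 9 genes, from 7 to 59. Ripk3 (chromosome 14, 55784996 to 55788857) had 0.193, 0.208, 0.543 and 0.556 CPM in NTG mice, 0.299, 0.360, 0.535, 0.285 and 0.609 CPM in APP/PS1 mice, and 0.388, 0.666, 0.417, 0.433 and 0.245 CPM with CP2. Its groups overlapped throughout. In the fit without a filter APP/PS1 mice differed from NTG mice by a log2 fold change of 0.14. The 95% interval, from -0.70 to 0.99, took in both directions, so that neither a rise nor a fall within it was excluded. The smallest difference that these mice could show was not calculated. Ripk3 values had a coefficient of variation of 53.8% in NTG mice. Mlkl (chromosome 8, 111311797 to 111338177) had 0.182, 0.178, 0.0885 and 0.203 CPM in NTG mice, 0.127, 0.203, 0.507, 0.483 and 0.277 CPM in APP/PS1 mice, and 0.434, 0.248, 0.261, 0.377 and 0.330 CPM with CP2. Its APP/PS1 values spread from the NTG range to well above it, with a log2 fold change of 0.96 (SE 0.44, adjusted p = 0.394). With single mice left out of edgeR's fit without a filter, Mlkl had 0.72 to 1.17, with adjusted p-values from 0.143 to 0.639.

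Birc3 (chromosome 9, 7848699 to 7873186) had 2.68, 2.26, 2.19 and 2.31 CPM in NTG mice. Its values were 3.21, 3.14, 3.80, 3.97 and 2.89 CPM in APP/PS1 mice and 3.14, 2.85, 2.18, 2.78 and 3.07 CPM with CP2. Vehicle-treated APP/PS1 mice were all above NTG by a small gap, and CP2-treated mice overlapped both groups. APP/PS1 mice differed from NTG mice by a log2 fold change of 0.54 (SE 0.13, adjusted p = 0.0381). The call was lost without a filter (adjusted p = 0.0605) and without any of NTG mice 8, 9 and 10 or APP/PS1 mice 17, 18 and 19, with adjusted p-values from 0.0514 to 0.124.

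**Figure D1:**
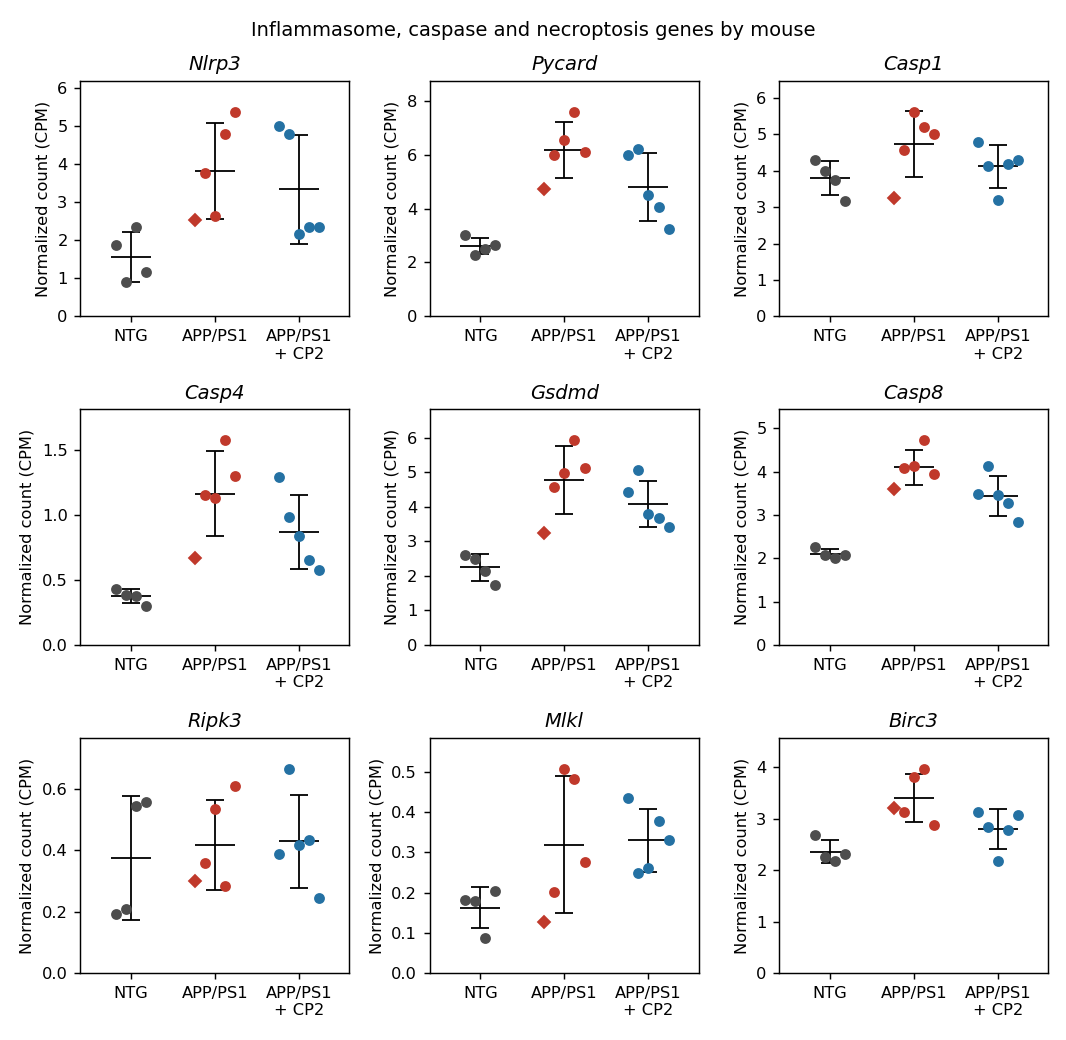
Normalized count in CPM (vertical axis, from 0, a scale of its own for each gene) of the 9 genes in every mouse, grouped as 4 NTG mice, 5 APP/PS1 mice and 5 APP/PS1 mice on CP2. Points are mice, the diamond is APP/PS1 mouse 16, and bars give the mean and SD. Pycard, Casp4, Gsdmd and Casp8 were higher in all 10 APP/PS1 mice than in NTG mice, whereas Ripk3 overlapped in every group.

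APP/PS1 mice on CP2 and on vehicle were compared to ask whether the drug altered these genes in mice of the same genotype. No member passed the adjusted threshold in edgeR or in any alternative, and over all 16405 genes tested 1, or 0.0061%, did. At an unadjusted p under 0.05, 1 of the 6 members tested was lower with edgeR, Casp8, and 2 with DESeq2, Casp8 and Birc3. Of all 16405 genes, 601 (3.66%) were lower with edgeR at that threshold and 672 with DESeq2. Mean CPM was lower with CP2 in 7 of the 9 members and higher in Ripk3 and Mlkl. The direction of the higher pair was not stable to single mice. Without mouse 16 the vehicle means were 0.447 CPM for Ripk3 and 0.367 CPM for Mlkl against 0.430 and 0.330 CPM with CP2. All 9 means were then lower with CP2. In the fit without a filter, leaving out vehicle-treated mouse 17 instead gave log2 fold changes of -0.010 for Ripk3 and -0.079 for Mlkl. No member separated the groups, beside 0.591% of all genes that were lower without overlap.

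Among the inflammasome members, Pycard had a mean of 6.18 ± 1.04 CPM (SD, n = 5) with vehicle and 4.81 ± 1.26 CPM (n = 5) with CP2, a difference of -22.2%. Its log2 fold change was -0.36 with a 95% interval from -0.77 to 0.04 (unadjusted p = 0.0738, adjusted p = 0.748). Gsdmd went from 4.77 ± 0.983 to 4.08 ± 0.669 CPM and had a log2 fold change of -0.22 (95% interval -0.58 to 0.13). Casp1 had -0.20 (95% interval -0.53 to 0.14) and Nlrp3 -0.19 (95% interval -0.87 to 0.48). The interval of Nlrp3 was the widest of the 6 tested and took in both directions. Casp4, in the fit without a filter, had -0.42 (95% interval -0.98 to 0.13).

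In the death receptor branch, Casp8 went from 4.10 ± 0.407 CPM with vehicle to 3.43 ± 0.464 CPM with CP2. The log2 fold change was -0.26 with a 95% interval from -0.50 to -0.01 (unadjusted p = 0.0426, adjusted p = 0.744). Birc3 went from 3.40 ± 0.462 to 2.80 ± 0.380 CPM, with a log2 fold change of -0.28 (95% interval -0.56 to 0.01, adjusted p = 0.744). Ripk3 and Mlkl, without a filter, had log2 fold changes of 0.04 (95% interval -0.61 to 0.68) and 0.05 (95% interval -0.72 to 0.81). The differences of the 6 tested genes had a median of -0.24, beside -0.01 over all genes, and none passed the adjusted threshold. Mouse 16 moved the unadjusted values: without it, Pycard (log2 fold change -0.44), Casp1 (-0.31), Gsdmd (-0.33) and Casp8 (-0.30) had an unadjusted p under 0.05, with adjusted p-values from 0.499 to 0.502, while 5.29% of all 16497 genes then tested were lower at that threshold. Casp4 then met the filter through the vehicle group alone, where it is high, and had -0.57.

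**Figure D2:**
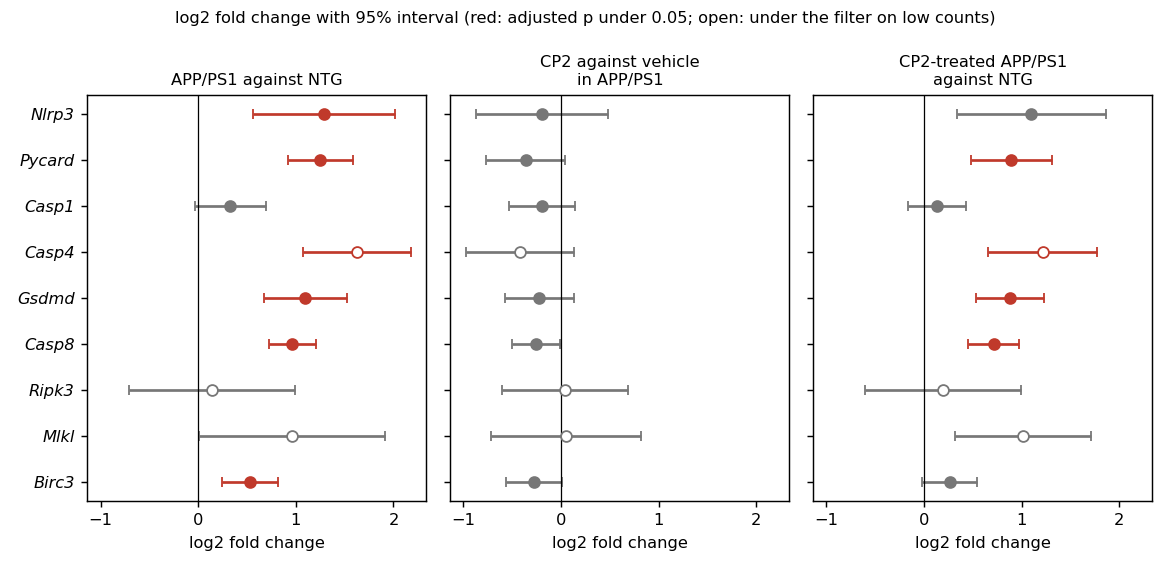
Log2 fold change (horizontal axis) of the 9 genes in the 3 comparisons, with 95% intervals. Red marks an adjusted p under 0.05 and open points the 3 genes under the filter on low counts, taken from the fit without a filter. Intervals of Nlrp3, Pycard, Casp4, Gsdmd, Casp8 and Mlkl were above 0 in both comparisons with NTG mice, though Mlkl passed the adjusted threshold in neither. In the comparison of CP2 with vehicle only the interval of Casp8 left out 0.

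The comparison of APP/PS1 mice on CP2 with NTG mice gives the difference that remained under treatment. It shares its NTG mice with the first comparison and its CP2-treated mice with the second. Of the 6 members tested, 3 were called higher: Casp8 (log2 fold change 0.71, SE 0.12, adjusted p = 0.00476), Gsdmd (0.88, SE 0.16, adjusted p = 0.00841) and Pycard (0.89, SE 0.19, adjusted p = 0.0186). Over all 16412 genes tested, 4.55% were called higher. Nlrp3 met the filter only through the CP2-treated mice here. Pycard lost its call when NTG mouse 8, 9 or 10 was left out, with adjusted p-values from 0.0525 to 0.0613. Nlrp3 (1.10, SE 0.35, adjusted p = 0.0984), Birc3 (0.26, SE 0.13, adjusted p = 0.291) and Casp1 (0.13, SE 0.13, adjusted p = 0.640) did not pass.

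In 5 of the 9 members every CP2-treated APP/PS1 mouse was above every NTG mouse, namely Pycard, Casp4, Gsdmd, Casp8 and Mlkl, and 3 of these were among the 6 tested. The share over all genes tested was 5.98%. Casp4 was 2.31-fold higher by mean CPM, with a log2 fold change of 1.21 in the fit without a filter (SE 0.26, adjusted p = 0.0208), and when single mice were left out the adjusted p ranged from 0.0104 to 0.0678, the call being lost without NTG mouse 8, 9 or 10 or treated mouse 21 or 22. Mlkl, at 0.163 ± 0.0509 CPM in NTG (SD, n = 4) and 0.330 ± 0.0782 CPM in transgenic mice on CP2 (n = 5), had a log2 fold change of 1.01 (unadjusted p = 0.00755, adjusted p = 0.148). That Nlrp3 and Birc3 passed against NTG mice with vehicle and not with CP2 does not show a difference between the treatments, whose direct test is given above.

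The other genes of these pathways were described with a list of 57 genes. Between APP/PS1 and NTG mice 44 were tested, of which 35 had a higher estimate, 7 were called higher and 0 lower. Their median log2 fold change was 0.12, beside -0.004 over all genes tested, of which 4.33% were called higher. With CP2 against vehicle 0 of 44 were called. At an unadjusted p under 0.05 with edgeR 3 of them were lower, beside 3.66% of all genes tested. For APP/PS1 mice on CP2 against NTG mice 43 were tested, and 34 had a higher estimate. Of these 43, 7 were called higher, beside 4.55% of all genes tested.

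Sensors and triggers of inflammasomes held most of the calls, with 4 of the 8 tested higher in APP/PS1 mice and a list median of 0.64. Over all genes tested, 4.33% were called higher. The count and the median include Naip5 and Naip6, which entered the test through the group where they are high. Naip2, Naip5 and Naip6, receptors for bacterial flagellin or parts of secretion systems that act with NLRC4, had log2 fold changes of 1.68, 1.57 and 1.58 (adjusted p = 0.000407, 0.0025 and 0.00118). Naip5 and Naip6 met the filter only through the transgenic group in both comparisons with NTG mice, their lowest NTG values being 0.818 and 0.771 CPM. In edgeR's fit without a filter their adjusted p-values between APP/PS1 and NTG mice were 0.00156 and 0.000547. The Naip genes are near-identical copies, so that the share of reads each received is uncertain. P2rx7, the ATP-gated channel upstream of NLRP3, had 0.40 (adjusted p = 0.0393), a call lost when any single mouse other than mouse 16 was left out (adjusted p from 0.0615 to 0.124). All 4 were also higher in CP2-treated APP/PS1 than in NTG mice. Their partner Nlrc4 was under the filter and had means of 0.334 ± 0.0972 (NTG), 0.293 ± 0.0876 (APP/PS1) and 0.240 ± 0.0488 CPM (APP/PS1 with CP2). Aim2, a sensor of cytosolic DNA, had a log2 fold change of 0.88 (adjusted p = 0.0552).

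Among the 6 substrates and pore proteins 4 were tested and none was called. Il1b, the cytokine matured by caspase-1, was under the filter, with 0.280 ± 0.107 (NTG), 0.765 ± 0.136 (APP/PS1) and 0.684 ± 0.261 CPM (APP/PS1 with CP2). In the fit without a filter its log2 fold change in APP/PS1 against NTG mice was 1.44 (adjusted p = 0.0219) and with CP2 against vehicle -0.16 (adjusted p = 0.913). Il18, the other cytokine of caspase-1, was at 10.3 ± 0.895 CPM in NTG and 9.32 ± 0.666 CPM in APP/PS1 mice, a log2 fold change of -0.13 (adjusted p = 0.447). Per length, in the authors' values, Il18 was at 11.5 RPKM and Il1b at 0.117 RPKM in NTG mice.

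Of death receptors and necroptosis partners, 10 were tested, all 10 with a higher estimate in APP/PS1 mice, and 2 were called. Tnfrsf1a, the main TNF receptor, went from 8.53 ± 0.753 CPM (n = 4) in NTG to 18.4 ± 4.71 CPM in APP/PS1 mice without (n = 5) and 15.6 ± 2.79 CPM with CP2 (n = 5), with a log2 fold change of 1.12 between the first 2 groups (adjusted p = 0.00592). Fas, another death receptor, was at 1.57 ± 0.289, 2.99 ± 0.601 and 2.07 ± 0.298 CPM in the same groups. Its log2 fold change was 0.94 between APP/PS1 and NTG mice (adjusted p = 0.0151, or 0.0535 without NTG mouse 9) and -0.53 between CP2 and vehicle (unadjusted p = 0.0052, adjusted p = 0.744). The kinase gene Ripk1 (0.23, adjusted p = 0.215) and the adaptor Fadd (0.19, adjusted p = 0.579), which link these receptors to caspase-8, did not pass between APP/PS1 and NTG mice.

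Few genes of apoptosis proper passed. Of 6 other caspases tested none was called in any comparison. Of 5 inhibitors of apoptosis and their antagonists none was called, and Birc2, which encodes the close relative cIAP1 of the Birc3 product, had a log2 fold change of 0.05 between APP/PS1 and NTG mice (adjusted p = 0.713). Of 11 genes of mitochondrial apoptosis, Mcl1, a survival protein, had 0.29 (adjusted p = 0.0145). In APP/PS1 mice on CP2 against NTG mice, Mcl1 had 0.22 (adjusted p = 0.0394) and Bcl2, a relative of it, 0.25 (adjusted p = 0.0432), calls that were lost without a filter (adjusted p = 0.0569 and 0.0686) and, for Mcl1 without 7 and for Bcl2 without 8, of the 9 single mice.

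**Figure D3:**
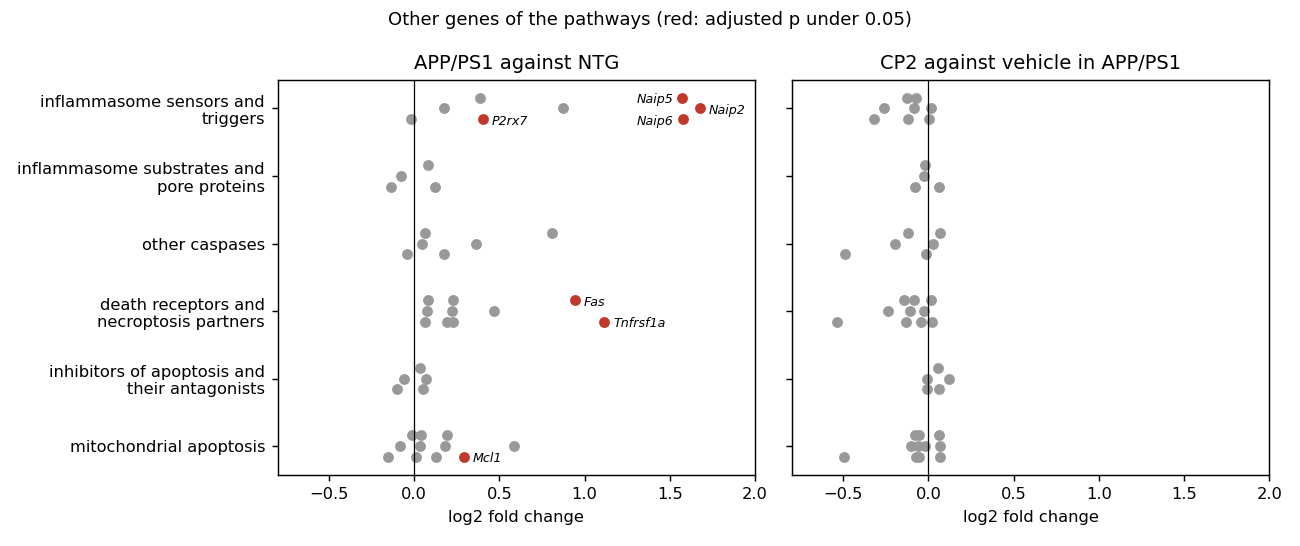
Log2 fold change (horizontal axis) of the 44 tested pathway genes outside the 9 members, by list (vertical axis), in APP/PS1 against NTG mice and in CP2 against vehicle in APP/PS1 mice. Red and named points have an adjusted p under 0.05. The 7 calls in the first comparison lay between 0.29 and 1.68, and none was made in the second.

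Markers of microglia and of red cells were higher in the transgenic groups together with the members. All 12 microglial markers had a higher estimate in APP/PS1 than in NTG mice, 9 of them called. Their log2 fold changes ran from 0.26 to 1.33 with a median of 1.01. The median of the members was 1.03 for the 6 tested, Nlrp3 included, and 0.97 for the 5 above 1 CPM in both groups. The 12 markers summed to 409 to 430 CPM in NTG mice. In APP/PS1 mice they summed to 749 to 994 CPM on vehicle and 613 to 905 CPM on CP2, with no marker at 0 in any mouse. In the comparison of CP2 with vehicle all 12 had a lower estimate, none called, with a median of -0.16. The 5 red cell markers all had a higher estimate in APP/PS1 than in NTG mice, 2 of them called, with a median of 1.06, and with CP2 against vehicle the median was -0.04. Of endothelial markers 5 of 6 had a higher estimate (1 called, median 0.22) and of border macrophage markers 4 of the 4 tested (none called, median 0.38). Medians were 0.09 for the 6 markers of oligodendrocytes (1 called higher), -0.03 for the 6 of astrocytes (1 called lower) and -0.06 for the 8 of neurons (none called). The part of these cells in the members' results was not tested, but each member was also expressed relative to the mean log2 CPM of the 12 markers in the same mouse.

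On that scale the member genes parted. Casp4 stood 0.67 log2 units higher against the markers in APP/PS1 than in NTG mice (-5.32 ± 0.360, n = 5, against -5.99 ± 0.194, n = 4) and Pycard 0.36 (-2.90 ± 0.254 against -3.26 ± 0.186). The 0.43 of Nlrp3 was within the NTG SD of 0.652. Gsdmd (0.20) and Casp8 (0.08) differed by less than their SD. Casp1 fell by 0.57 relative to the markers, from -2.72 ± 0.165 to -3.29 ± 0.306, and Birc3 fell by 0.35, from -3.40 ± 0.131 to -3.75 ± 0.323. Ripk3 (-0.63) and Mlkl (-0.10) differed by less than the larger SD of the groups. For all 9 genes the ranges of NTG and APP/PS1 mice overlapped on this scale, for Casp1 -2.94 to -2.54 and -3.65 to -2.88. For Casp4 the overlap was mouse 16 alone, the other 4 APP/PS1 mice lying between -5.44 and -4.99 and NTG mice between -6.25 and -5.79. The other 8 genes overlapped without mouse 16 too. Between CP2 and vehicle no member differed by more than the SD of the vehicle group, the differences running from -0.27 for Casp4 to 0.33 for Mlkl. These ratios are descriptions, since the markers were chosen with their behaviour in these mice known.

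**Figure D4:**
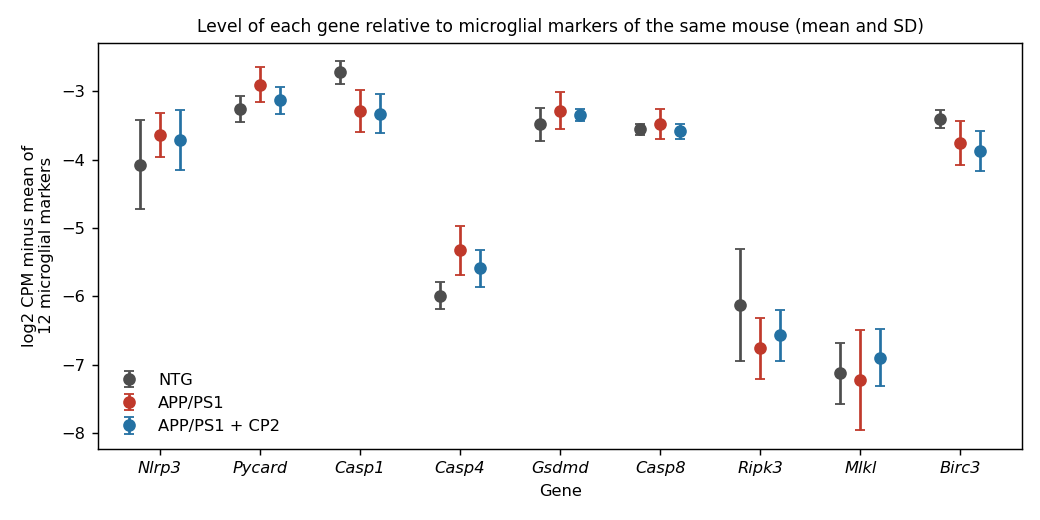
Log2 CPM of each gene minus the mean log2 CPM of 12 microglial markers of the same mouse (vertical axis, log2 units), as mean and SD for 4 NTG mice, 5 APP/PS1 mice and 5 APP/PS1 mice on CP2. Casp4 was 0.67 higher in APP/PS1 than in NTG mice, whereas Casp1 and Birc3 were 0.57 and 0.35 log2 units lower relative to the markers.

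Markers of other leukocytes and of blood were summed in the same way. The 7 neutrophil markers summed to 0.645 to 7.90 CPM in NTG mice, and in APP/PS1 mice to 0.597 to 1.51 CPM on vehicle and 0.452 to 2.07 CPM on CP2, with Ly6g, Camp, Elane and Retnlg at 0 in some mice. The 4 B cell markers summed to 0.683 to 1.63 CPM over all mice. The 7 T cell markers summed to 1.95 to 2.69 CPM in NTG mice, and in APP/PS1 mice to 3.44 to 24.3 CPM on vehicle and 2.37 to 3.82 CPM on CP2, the highest value being that of mouse 16, and Cd3e was at 0 in some mice. Border macrophage markers gave 12.8 to 17.2 CPM in NTG mice, and in APP/PS1 mice 16.5 to 22.1 CPM on vehicle and 14.7 to 19.9 CPM on CP2. Red cell markers gave 82.5 to 152 CPM in NTG mice, and in APP/PS1 mice 114 to 471 CPM on vehicle and 137 to 442 CPM on CP2. The part of these cells in the results was not tested.

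Across the 10 APP/PS1 mice, treated and untreated, Pycard, Casp4, Gsdmd and Casp8 varied together, as a description over mice that share the 2 treatment groups. Pearson's r of log2 CPM was 0.94 for Pycard and Casp8, 0.93 for Pycard and Casp4, 0.91 for Casp4 and Gsdmd and 0.90 for Pycard and Gsdmd, and 0.85 and 0.81 for Casp8 with Gsdmd and Casp4. Nlrp3 had r from 0.60 with Casp8 to 0.80 with Casp4 among these 4, and Casp1 from 0.45 with Casp8 to 0.74 with Gsdmd. Casp1 also had r = 0.72 with Mlkl and 0.70 with Birc3. Without mouse 16 the values of Casp1 were 0.63 with Gsdmd, 0.56 with Mlkl and 0.91 with Birc3. Ripk3 followed none of the others, its r running from -0.26 with Birc3 to 0.44 with Gsdmd. With the mean of the microglial markers r was 0.85 for Nlrp3, 0.80 for Casp4, 0.76 for Pycard, 0.74 for Gsdmd and 0.67 for Casp8, but 0.36 for Casp1, 0.16 for Birc3 and 0.10 for Mlkl.

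The genes outside the list whose pattern over the 10 APP/PS1 mice was most like that of each member were then named, among 16405 genes, by Pearson's r and with no test. They were Tmem176b (r = 0.98) and Emr1 (0.97), a gene of macrophages, for Pycard. Gsdmd was nearest to Capg (0.99) and Clec5a (0.98), Casp4 to Cmtm3 (0.98) and Lgmn (0.97), and Casp8 to Vkorc1 (0.98) and Oraov1 (0.98). Nlrp3 had Fam46c (0.96) and 4632428N05Rik (0.96), and Casp1 had Galm (0.95) and Ppl (0.94). For Birc3 they were 9530027J09Rik (0.94) and Prickle3 (0.92), for Mlkl Rassf4 (0.95) and Igsf10 (0.95), and for Ripk3 Mir3082 (0.89) and Thumpd2 (0.88). With 10 mice and 16405 genes, high values of r arise in any list, and those of Ripk3 and Mlkl rest on few counts.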

How the data were processed

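RNA of 14 mouse brains was sequenced from TruSeq v2 libraries. The authors used TopHat2 for alignment to mm10 and FeatureCounts for read counts per Ensembl gene, a read counting for each gene it overlapped. The deposited read counts are not normalized. The RPKM values are those of the authors, were deposited beside the counts and served only to order levels between genes. The aligner's version and the strand setting are not given in the sources used here.

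Counts were analysed with R 4.3.3, edgeR 4.0.16 (TMM, quasi-likelihood test, Benjamini-Hochberg over all genes tested), DESeq2 1.42.0 and limma 3.58.1, and Python 3.11.15 with numpy 2.4.6, pandas 2.3.3 and matplotlib 3.10.9. Fits took the 2 groups compared and genes that were above 1 CPM throughout at least 1 of them. SEs are those implied by the test statistic. Log2 CPM used a prior count of 2. The procedure was tested on simulated data. No 2 replicates were identical in 26 pairs (lowest chi-square per degree of freedom 8.25). Members and lists were chosen with earlier results of these data known. Named genes are the 9 members, pathway genes with an adjusted p under 0.05 in any comparison, Il1b, Il18, Nlrc4, Aim2, Ripk1, Fadd and Birc2, and the 2 genes most correlated with each member; 1 gene named by this rule is not reported here. Alternatives were DESeq2, RLE or upper-quartile factors, no filter, a single fit of all 3 groups, a minimum of 10 counts in each mouse, limma-voom, the ribosomal RNA share as covariate and each mouse left out. Promoter sequences are from RefSeq (GRCm38.p6) and overlaps from GENCODE. Protein sequences were not used here.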

Additional observations from a re-analysis of the deposited data

How the results depend on the processing

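The number of members called was 5 between APP/PS1 and NTG mice, and 6 of 8 tested with at least 10 counts in each mouse. It was 3 with the ribosomal RNA share as covariate, where Nlrp3 and Birc3 were lost. With single mice left out it ranged from 3 to 7, the 7 being without mouse 16 and the 3 without NTG mouse 8 or 10 or APP/PS1 mouse 17 or 19. Without mouse 16, Casp4 entered the test through APP/PS1 mice alone, where it is high, as Nlrp3 did. Of all 16522 genes tested in that fit, 1084 were called higher. The number of members called was 0 under every alternative for CP2 against vehicle. For APP/PS1 mice on CP2 against NTG mice it was 3, with 2 to 3 when single mice were left out. It was 4 there with DESeq2, which added Nlrp3 (adjusted p = 0.0161). It was also 4 without a filter, with 9 members tested, and with at least 10 counts in each mouse, with 8 tested. No member that met the filter changed direction. Without a filter and with single mice left out, Ripk3 went from -0.080 to 0.41 (0.14 with all mice) between APP/PS1 and NTG mice, from -0.17 to 0.21 (0.04) for CP2 against vehicle and from -0.031 to 0.45 (0.19) for APP/PS1 mice on CP2 against NTG mice, and Mlkl from -0.15 to 0.29 (0.05) for CP2 against vehicle. Over all genes the calls between APP/PS1 and NTG mice were 931, and 1669 with DESeq2, 1561 with limma-voom, 578 without NTG mouse 9 and 1478 without APP/PS1 mouse 16. For CP2 against vehicle they were 1, and 23 with DESeq2, 2 with the ribosomal covariate, and 0 with all 3 groups in one fit or without CP2-treated mouse 22. For APP/PS1 mice on CP2 against NTG mice they were 987, and 1666 with DESeq2, 621 without NTG mouse 8, 565 without NTG mouse 9 and 612 without CP2-treated mouse 21. Pathway genes called there were 7, and 11 with DESeq2 and 4 without NTG mouse 9. Naip6, at a log2 fold change of 0.01 between CP2 and vehicle, was at -0.11 with the ribosomal covariate and between -0.085 and 0.147 with single mice left out. The causes were not tested. Values of Casp4, Ripk3 and Mlkl, all alternatives for pathway genes, and member values without mouse 16 other than its fits, were added after the data were seen. No paired analysis was possible because the groups share no replicate numbers. Ripk3 and Mlkl had counts from 7 to 59.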

Other observations

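Pathway genes under the filter on low counts, chosen after their values were seen, included both Nlrp1 paralogues, sensors of inflammasomes. In the fit without a filter, Nlrp1a had a log2 fold change of 1.40 between APP/PS1 and NTG mice (edgeR, adjusted p = 0.0317) and Nlrp1b of 1.32 (adjusted p = 0.0148). Against NTG, CP2-treated APP/PS1 mice had 1.22 (adjusted p = 0.0360) and 1.16 (adjusted p = 0.0248), and CP2 against vehicle gave -0.19 and -0.17 (adjusted p = 0.836 and 0.880). The paralogues are close in sequence, so that the share of reads each received is uncertain. Zbp1, a sensor of nucleic acids that acts on RIPK3, had a log2 fold change of 2.226 between APP/PS1 and NTG mice (adjusted p = 0.0537) and -0.99 between CP2 and vehicle (unadjusted p = 0.0214, adjusted p = 0.778).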
